A study of Mus musculus with 6 samples.

Results

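The endogenous transcription factors of epithelial-mesenchymal transition (EMT) were followed in melan-a cells, an immortal line of mouse melanocytes (pigment cells) that descends from epidermal melanoblasts of C57BL/6 embryos. Every probe set annotated to Snai1, Snai2, Zeb1, Zeb2, Twist1, Twist2 or Tcf4 was taken, each on its own. These 7 of 18193 genes on the array had 20 of its 45101 probe sets, namely 1 for Snai1, 2 for Snai2, 4 for Zeb1, 5 for Zeb2, 1 for Twist1, 1 for Twist2 and 6 for Tcf4. All cultures carried delta-BRAF-ER, a BRAF kinase whose activity is turned on by tamoxifen. There were 6 groups with 1 array each. In BRAF-off the kinase was left inactive, in BRAF-on it was active, and in the other 4 it was active and ZEB2, SNAIL2, TWIST1 or ZEB1 had been introduced as well. Neither the tamoxifen dose, the time after activation, the vector of the added factors nor whether a culture was a clone is given in the sources used here. With 1 array per group no spread can be estimated, so no difference was tested. Each fold describes a pair of arrays, and their number limits the precision.

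The 4 added factors belong to 3 families that the probe sets cover. SNAIL and ZEB proteins are zinc finger repressors that bind E-box DNA and are best known for shutting off epithelial genes such as that for E-cadherin. TWIST proteins are basic helix-loop-helix (bHLH) factors that bind E-boxes as dimers with E-proteins, of which Tcf4 encodes one. In the melanocyte lineage SNAI2 and ZEB2 belong to the normal program, while ZEB1 and TWIST1 are known from invasive melanoma. The question put here is what happened to the cell's own set of these factors when BRAF was activated and when a further factor was added.

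E-boxes have the form CANNTG, and the core CAGGTG is the one that SNAIL and ZEB factors bind. The 250 bases before the start site were searched on both strands in RefSeq promoter windows of GRCm38.p6. Windows were at hand for 4 of the 7 genes. The windows of Snai1, Twist1 and Twist2, the genes with a single window, are shown to compare the gene under the detection floor on every array with the TWIST pair. Zeb2 had 4 windows at different starts, some of them overlapping, which were searched but are not shown. Capitals mark any CANNTG match, and the rest is in lower case.
Snai1, chr2:167537945-167538194, + strand: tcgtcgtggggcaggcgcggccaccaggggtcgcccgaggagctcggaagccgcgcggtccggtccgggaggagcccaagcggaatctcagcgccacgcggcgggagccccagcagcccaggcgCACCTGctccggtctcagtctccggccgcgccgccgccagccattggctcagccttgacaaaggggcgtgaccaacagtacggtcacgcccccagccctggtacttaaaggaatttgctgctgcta
Twist1, chr12:33957421-33957670, + strand: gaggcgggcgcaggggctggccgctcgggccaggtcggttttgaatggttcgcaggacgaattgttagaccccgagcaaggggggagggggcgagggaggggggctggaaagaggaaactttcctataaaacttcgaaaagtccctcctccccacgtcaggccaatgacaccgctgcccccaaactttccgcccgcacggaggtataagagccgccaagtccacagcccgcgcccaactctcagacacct
Twist2, chr1:91801211-91801460, + strand: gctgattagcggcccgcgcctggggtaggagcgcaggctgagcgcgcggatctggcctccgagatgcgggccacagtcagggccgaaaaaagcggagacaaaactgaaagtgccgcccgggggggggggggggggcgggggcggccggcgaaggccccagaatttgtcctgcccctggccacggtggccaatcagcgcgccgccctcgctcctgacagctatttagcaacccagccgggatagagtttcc
Snai1 held 1 match, CACCTG, which read on the opposite strand is the core named above. Its first base lies at position -126 from the start site. Twist1, Twist2 and all 4 windows of Zeb2 held no CANNTG in these 250 bases. Over all 32851 windows of the same length, 17.2% held CAGGTG and 66.2% held some CANNTG. A match is a description of the letters and no match concerns this window alone.

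Expression values are MAS5 signals, linear brightness units that the authors scaled so that the arrays share a common level. A floor of 63.7 units, the median of all values, marked the level under which a signal was not read as a level. Of the 20 probe sets 14 lay at or above this floor on all 6 arrays, 1 on some of them and 5 on none. The Snai1 probe set was one of the 5, with signals between 13.2 (BRAF-on) and 36.4 (with ZEB1), so no Snai1 fold is given. SNAI1 is the founding EMT repressor, and in these arrays its transcript was not above the floor with BRAF activated or with any added factor. Of the 4 Zeb1 probe sets 3 also stayed under the floor throughout, as did 1 of the 6 for Tcf4. The plot of signals by array shows all 20.

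**Figure D1:**
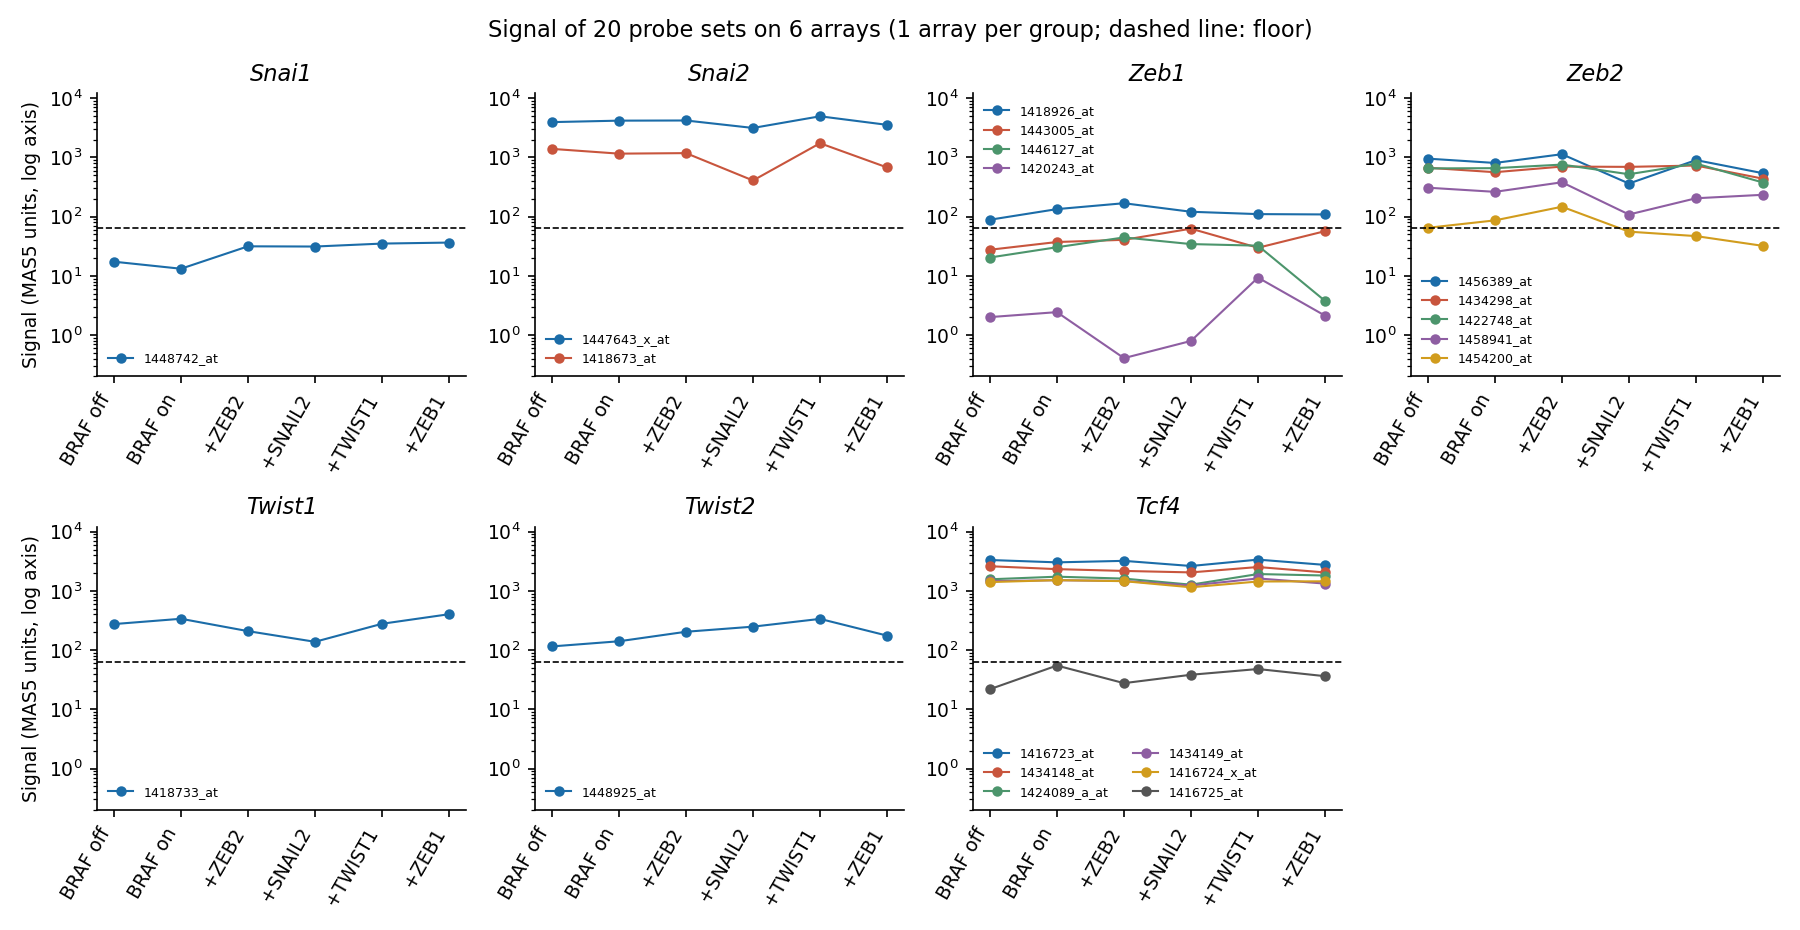
Signal (MAS5 units, log axis) of each of the 20 probe sets on the 6 arrays, in 1 panel per gene; points are single arrays, lines join the points of a probe set and the dashed line is the floor of 63.7 units. Snai1 lies under the floor on all arrays, Tcf4 is level across them in 5 probe sets, and Snai2, Zeb2 and Twist1 have their lowest points with SNAIL2 in several probe sets.

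Depth does not apply to arrays, but other whole-array measures moved with the groups. Bacterial poly-A RNAs serve as spike-in controls of the labelling. They were 2.55-fold (median of 24 probe sets) as bright with SNAIL2 as in BRAF-on, and 0.88-fold to 1.42-fold on the other arrays. The ratio of 3' to 5' signal, a gauge of RNA integrity, ranged from 0.792 to 0.839 for the Gapdh controls and from 1.36 to 1.54 for the beta-actin controls. It varied more for 2 dimmer controls. For pyruvate carboxylase it was 3.2 in BRAF-on, 9.68 with SNAIL2, 10.2 in BRAF-off and 2.89 to 4.46 on the other 3 arrays. For the transferrin receptor it ran from 2.25 with SNAIL2 to 9.3 with TWIST1, with 5' signals of 9.56 to 30.4, under the floor throughout. The part of RNA quality in the results was not tested. Of 9 melanocyte markers all were at or above the floor except with TWIST1, where 3 were. Their summed signals were 91523 in BRAF-off, 67755 in BRAF-on, 115794 with ZEB2, 139293 with SNAIL2, 4941 with TWIST1 and 28303 with ZEB1. Against BRAF-on, 2-fold or more, 3 of the 9 were higher with ZEB2 and 6 with SNAIL2, and 7 were lower with TWIST1 and 7 with ZEB1. Over all genes 1.76% were higher with ZEB2 and 5.61% with SNAIL2, and 2.02% were lower with TWIST1 and 3.93% with ZEB1. Fibroblast markers had 4 of 7 at or above the floor in BRAF-on and 6 of 7 with TWIST1, with summed signals of 6710 and 15951. In bulk RNA such as this, fewer cells of a type and less RNA per cell cannot be told apart. Over all 5 comparisons the median log2 ratio of all probe sets lay between -0.02 and 0.05. Each array had been scaled to the same trimmed mean of 500, so these medians cannot show whether a common shift existed.

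The first comparison, BRAF-on against BRAF-off, concerned the kinase alone. None of the 15 member probe sets compared was 2-fold apart, where 1.17% of all 20360 probe sets with a gene symbol were. Their log2 ratios ran from -0.27 to 0.60 with a median of 0.05, against 0.01 for all probe sets. The highest was the Zeb1 probe set 1418926_at, which read 88.5 in BRAF-off and 134 in BRAF-on, both close to the floor. Twist1 was at 275 and 338, a log2 ratio of 0.30, and Twist2 at 115 and 141, a log2 ratio of 0.29. Both probe sets of Snai2 stayed within 0.27 of 0, and those of Tcf4 lay between -0.16 and 0.15. Zeb2 had 3 probe sets at -0.23 to -0.25 and 2 at 0.01 and 0.42. No array had tamoxifen without the construct, so BRAF activation and the drug cannot be told apart here.

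**Figure D2:**
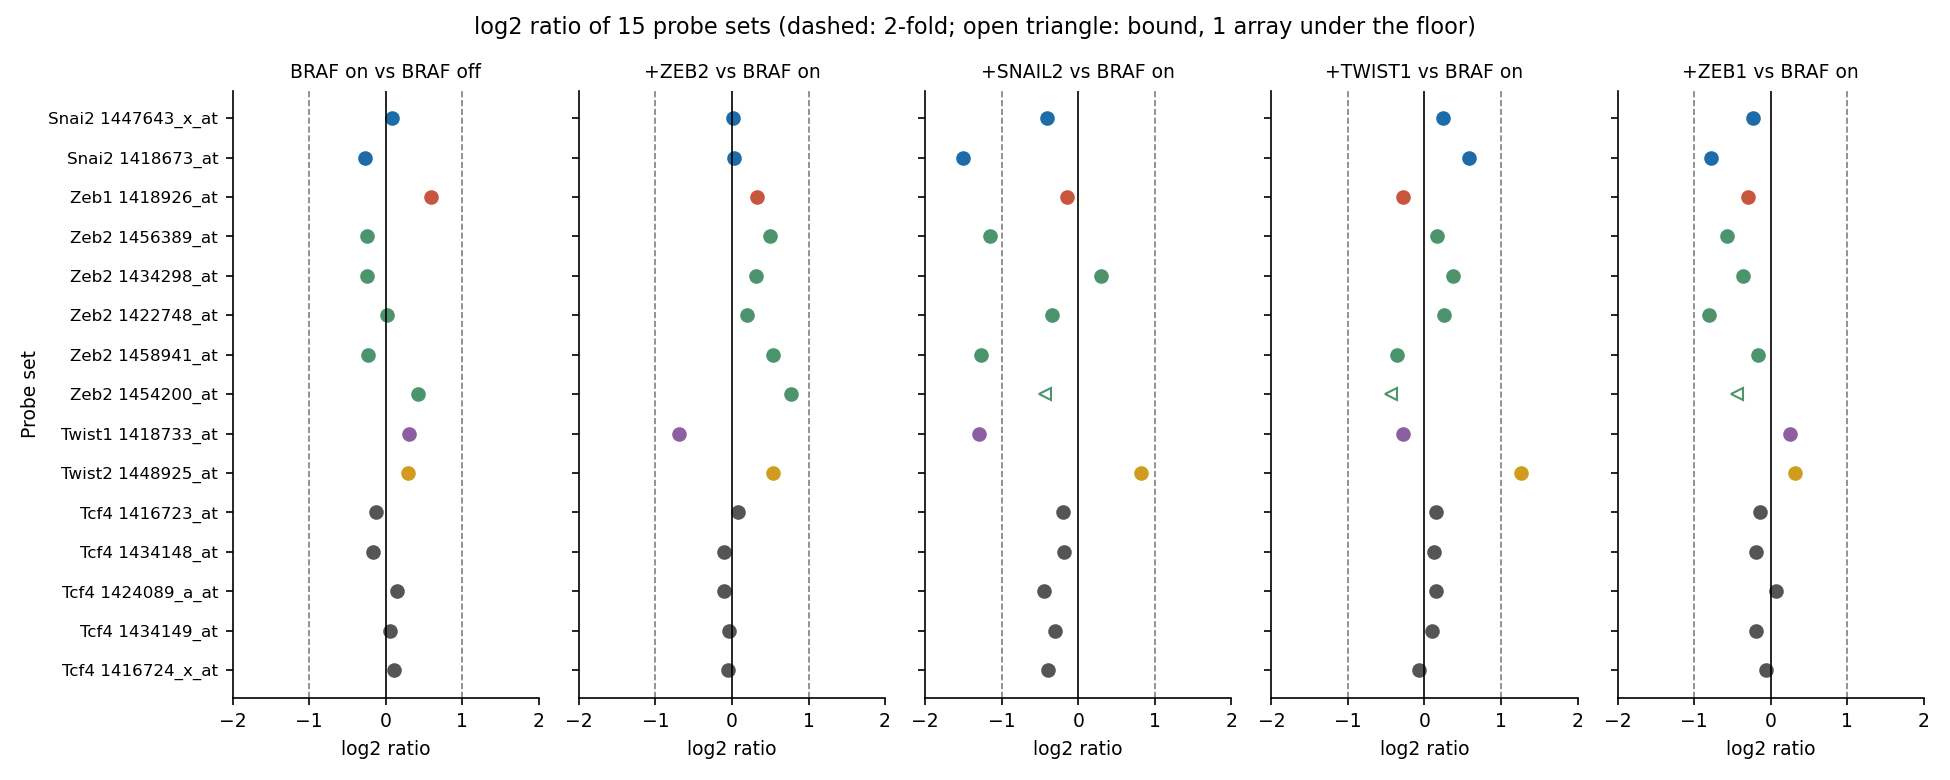
Log2 ratio of the 15 probe sets that reached the floor on at least 1 array, in each of the 5 comparisons (1 array against 1 array); filled circles are measured on both arrays, open triangles are bounds with 1 array under the floor, and dashed lines mark 2-fold. With SNAIL2 4 probe sets lie beyond the lower dashed line, with TWIST1 only Twist2 lies beyond the upper one, and no point does so in the other 3 comparisons.

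SNAI2 (Slug), the SNAIL family member of the melanocyte lineage, was measured by 2 probe sets. Probe set 1418673_at was at 1393 in BRAF-off, 1157 in BRAF-on, 1181 with ZEB2, 407 with SNAIL2, 1735 with TWIST1 and 677 with ZEB1. Probe set 1447643_x_at was at 3944, 4175, 4201, 3142, 4946 and 3547 in the same order. Both were lowest with SNAIL2, next lowest with ZEB1 and highest with TWIST1, and of the 15 pairs of arrays they ordered 13 alike. They differed in size: with SNAIL2 against BRAF-on the first was 2.84-fold lower and the second 1.33-fold. Their log2 ratios lay more than 1 apart, against a median gap of 0.25 among the 2768 genes with 2 probe sets above the floor everywhere, of which 5.31% had a gap of at least 1. The probe set name ending in x_at marks probes that may match other transcripts too. With ZEB1 the log2 ratios against BRAF-on were -0.77 and -0.24, with TWIST1 0.58 and 0.24, and with ZEB2 0.03 and 0.01.

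ZEB2, a zinc finger factor of differentiating melanocytes, had 5 probe sets, which parted company with SNAIL2. Probe set 1456389_at was at 953 in BRAF-off, 806 in BRAF-on, 1132 with ZEB2, 362 with SNAIL2, 901 with TWIST1 and 540 with ZEB1. Probe set 1458941_at was at 308, 262, 380, 108 (with SNAIL2), 204 and 234. These 2 were 2.23-fold and 2.42-fold lower with SNAIL2 than in BRAF-on, and both had their highest signal with ZEB2. Probe set 1434298_at was at 668, 562, 700, 692 (with SNAIL2), 729 and 437, so it was 1.23-fold higher with SNAIL2 than in BRAF-on. Probe set 1422748_at was at 651, 658, 756, 519, 787 and 376, that is 1.27-fold lower with SNAIL2. The probe sets of this gene thus differed in direction and size on that array. The 4 spanned 1.57 in log2 ratio there, against a median span of 0.62 over the 419 genes with 4 such probe sets, of which 18.6% spanned at least 1. The dim probe set 1454200_at was at 64.7, 86.3, 147, 55.7, 46.9 and 32.0 and gives only bounds with SNAIL2, TWIST1 or ZEB1.

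With ZEB1 added, all 5 Zeb2 probe sets were lower than in BRAF-on, by log2 ratios of -0.17 to -0.81, the last value for 1422748_at and 1 of the 5 (-0.44) being a bound. With ZEB2 added all 5 were higher, by 0.20 to 0.77. None of these 10 values reached 2-fold. With TWIST1 they went both ways, from -0.44, a bound, to 0.38. The pairs of Zeb2 probe sets above the floor everywhere ordered 8 to 13 of the 15 array pairs alike.

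ZEB1, the paralog of ZEB2, is known for low levels in differentiated melanocytes, and its probe sets were dim. The probe set above the floor, 1418926_at, was at 88.5 in BRAF-off, 134 in BRAF-on, 168 with ZEB2, 121 with SNAIL2, 110 with TWIST1 and 109 with ZEB1. It was lowest in BRAF-off and highest with ZEB2, a span of 1.9-fold. Log2 ratios against BRAF-on were 0.33 with ZEB2, -0.15 with SNAIL2, -0.28 with TWIST1 and -0.30 with ZEB1. The other 3 probe sets, 1443005_at, 1446127_at and 1420243_at, had signals of at most 62.6, 44.5 and 9.32 units.

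TWIST1 and TWIST2 are close bHLH paralogs, and their signals lay on opposite sides of BRAF-on with SNAIL2, with ZEB2 and with TWIST1. The Twist1 probe set 1418733_at was at 275 in BRAF-off, 338 in BRAF-on, 209 with ZEB2, 138 with SNAIL2, 278 with TWIST1 and 404 with ZEB1. It was lowest with SNAIL2, 2.45-fold under BRAF-on, and highest with ZEB1. The Twist2 probe set 1448925_at was at 115 in BRAF-off, 141 in BRAF-on, 204 with ZEB2, 249 with SNAIL2, 337 with TWIST1 and 176 with ZEB1. Its order was BRAF-off, BRAF-on, ZEB1, ZEB2, SNAIL2, TWIST1, and with TWIST1 it was 2.39-fold higher than in BRAF-on. With SNAIL2 the log2 ratio against BRAF-on was -1.29 for Twist1 and 0.82 for Twist2, and with ZEB2 it was -0.69 and 0.53. The pair lay at -0.28 and 1.26 with TWIST1, and both were higher with ZEB1, at 0.26 and 0.32. Each gene rests on a single probe set, so these values have no second probe set beside them. Twist2 was at its highest on the array where the summed signal of fibroblast markers was highest and that of melanocyte markers lowest. Not every marker followed its sum, and the part of the markers in the result was not tested. Added as a pseudocount in place of the floor, 63.7 units brought Twist2 with TWIST1 to a log2 ratio of 0.97 and Twist1 with SNAIL2 to -0.99.

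TCF4 (E2-2) is an E-protein, the class that dimerises with TWIST factors, and it also acts in EMT itself. Its 5 probe sets above the floor were the steadiest of the members, each spanning 1.27-fold to 1.51-fold over the 6 arrays. Probe set 1416723_at was at 3324 in BRAF-off, 3034 in BRAF-on, 3217 with ZEB2, 2634 with SNAIL2, 3374 with TWIST1 and 2749 with ZEB1. All 5 were lower with SNAIL2 than in BRAF-on, by log2 ratios of -0.18 to -0.45, and 4 of the 5 had their lowest signal there. Against BRAF-on they lay between -0.11 and 0.08 with ZEB2, between -0.08 and 0.15 with TWIST1 and between -0.19 and 0.07 with ZEB1.

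Set out by comparison, SNAIL2 had the most member probe sets 2-fold apart from BRAF-on. With SNAIL2 4 of 15 (26.7%) were lower and none higher, where 11.4% of all probe sets were apart and 6.21% were lower. Since 2 of the 4 belong to Zeb2, they are probe sets of 3 genes, Snai2, Zeb2 and Twist1. None of the other Snai2 and Zeb2 probe sets was 2-fold apart there. The members' median log2 ratio was -0.40 and 13 of 15 lay below 0. For all probe sets the median was 0.05 and 53.3% lay above 0. The 15 include 5 probe sets of Tcf4 and 5 of Zeb2, so they are not 15 genes. Melanocyte markers lay the other way on the SNAIL2 array, where 5.61% of all genes were at least 2-fold higher. Of the markers 6 of 9 were so, with a median log2 ratio of 1.34. Among them were the tyrosinase gene Tyr (3.76-fold) and the lineage factor genes Sox10 (2.84-fold) and Mitf (2.83-fold). With TWIST1 1 of 15 (6.67%), Twist2, was higher, where 1.61% of all probe sets were higher and 3.63% apart. With ZEB2 none was apart (2.1% of all probe sets) and with ZEB1 none (7.91%), although 12 of 15 lay below 0 there with a median of -0.19. Of all probe sets 52.7% lay above 0 with ZEB1, with a median of 0.03. On the ZEB1 array 7 of 9 melanocyte markers were lower, with a median of -1.49, where 3.93% of all genes were lower. The part of these markers in the member values was not tested. All 4 comparisons share the single BRAF-on array.

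Against BRAF-off, the other reference at hand, SNAIL2 again had 4 of 15 apart. Of these Snai2 1418673_at (3.42-fold) and Zeb2 1456389_at (2.63-fold) and 1458941_at (2.84-fold) were lower and Twist2 (2.16-fold) higher. Twist1 with SNAIL2 was then at a log2 ratio of -0.99. Twist2 with TWIST1 was 2.92-fold higher than BRAF-off, and Snai2 1418673_at with ZEB1 was 2.06-fold lower. Over all probe sets 9.07% were apart with SNAIL2, 4.94% with TWIST1 and 11% with ZEB1. The dim Zeb2 probe set 1454200_at with ZEB2 was 2.27-fold higher than BRAF-off, where 1.18% were apart.

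Counted over arrays, 9 of the 14 probe sets above the floor everywhere had their lowest signal with SNAIL2 and 8 of 14 their highest with TWIST1. Over all 17305 such probe sets the shares were 25.8% and 16.9%. The 9 belong to 4 genes, Snai2, Zeb2, Twist1 and Tcf4, and the 8 to Snai2, Zeb2, Twist2 and Tcf4. None of the 14 had its lowest signal in BRAF-on, with ZEB2 or with TWIST1. Of all such probe sets 10.5%, 8.54% and 19.8% were lowest on these arrays.

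Whether an introduced factor shows in the probe sets of its own gene was read from the same values. Only Zeb2 was higher on its own array in every probe set, by 1.15-fold to 1.7-fold over BRAF-on, and 3 of its 5 probe sets were highest there. With SNAIL2, in contrast, the Snai2 signals ranked last in both probe sets. Twist1 was at 0.823-fold of BRAF-on with TWIST1, ranking 3 of 6, and Zeb1 1418926_at at 0.813-fold with ZEB1, ranking 5 of 6. Probe sets of this array type target the 3' part of a gene's own messenger RNA, and how much of each messenger the introduced sequences held is not known here. The values therefore cannot show whether the added factors were present, nor whether the Zeb2 signal with ZEB2 came from the cell's own gene. The arrays are named by their labels throughout.

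The genes nearest in profile were sought for the brightest probe set of each member gene, where it was above the floor on all 6 arrays and spanned at least 2-fold. Likeness was the root mean square difference of log2 signals over the 6 arrays, each centred on its own mean, so smaller is nearer. For Zeb2 1456389_at they were Ccnc, which encodes cyclin C of the Mediator kinase module (0.07), Far1, a fatty acyl-CoA reductase gene (0.10), and Lcorl (0.11). For Twist1 they were Zfas1, a long non-coding RNA (0.09), Errfi1, a feedback inhibitor of EGF receptor signalling (0.09), and Pdgfa, a growth factor gene (0.10). Errfi1 was at 630, 854, 558, 390, 714 and 1027 in the order of groups used above, so it too was lowest with SNAIL2 and highest with ZEB1. For Twist2 the nearest were further off: Serpinb9 (0.19), Nudt21 (0.20) and Flrt3 (0.21). They were picked for this likeness from 17304 candidates for Twist1 and 17301 for Zeb2, with only 6 points each, which share arrays and scaling.

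**Figure D3:**
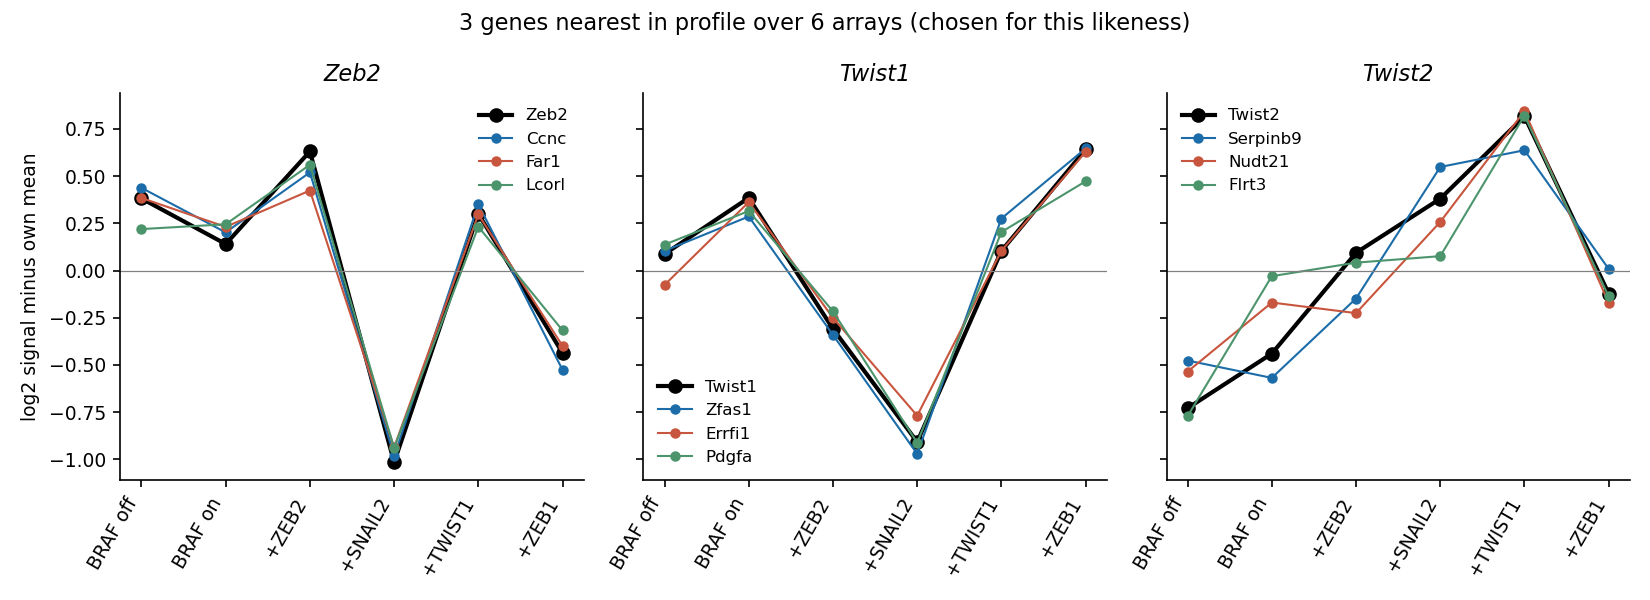
Log2 signal minus its own mean on the 6 arrays for the brightest probe sets of Zeb2, Twist1 and Twist2 (black) and for the 3 genes nearest to each (colours); points are single arrays and lines join the points of a gene. Zeb2 and Twist1 and their nearest genes all have their lowest point with SNAIL2, and Twist2 and its nearest genes have their highest with TWIST1.

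The partners, regulators and targets of these factors were read from 7 lists with 115 genes, of which 109 had a probe set. Here a gene was its brightest probe set. With BRAF-on against BRAF-off 2 of 80 genes were 2-fold apart (1.42% of all genes), Fosl1, an AP-1 gene downstream of ERK (log2 ratio 1.27), and Tbx3, a T-box repressor gene (1.08). With ZEB2 3 of 80 were apart (2.34% of all), with SNAIL2 6 of 81 (12%), with TWIST1 9 of 82 (4.05%) and with ZEB1 7 of 84 (8.42%). The plot of the 7 lists shows every gene.

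**Figure D4:**
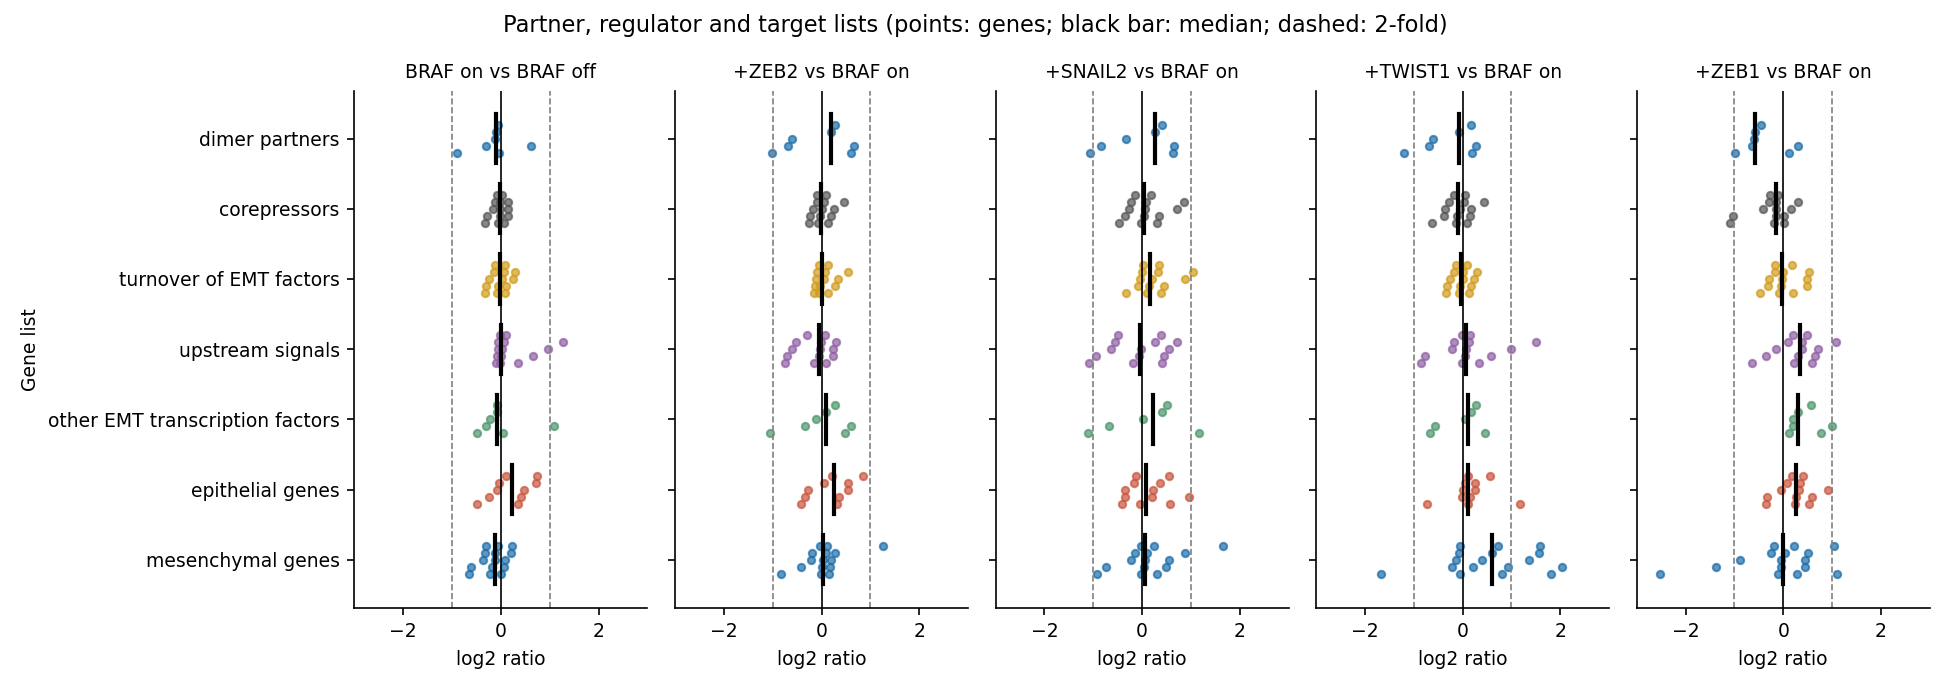
Log2 ratios of the genes in the 7 lists in each of the 5 comparisons (points: genes, some of them bounds with 1 array under the floor; black bars: medians; dashed lines: 2-fold). Mesenchymal genes with TWIST1 have a median of 0.60. Dimer partners, a list that includes the ID genes, have one of -0.57 with ZEB1.

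Dimer partners came first, since they set what TWIST and TCF4 proteins can pair with. In their brightest probe sets the E-protein genes Tcf3 and Tcf12 stayed within 2-fold in every comparison, Tcf12 between -0.05 and 0.29. A dimmer Tcf12 probe set, 1439209_at, had a signal of 570 in BRAF-on and 15.6, under the floor, with SNAIL2. The genes of the ID proteins, which bind E-proteins and keep them off DNA, varied more. Id1 was 2.01-fold lower with ZEB2 and 2.09-fold lower with SNAIL2 than in BRAF-on, and Id2 was 2.31-fold lower with TWIST1. Over all genes 0.583% were lower with ZEB2, 6.42% with SNAIL2 and 2.02% with TWIST1. The ID genes did not move together. Log2 ratios with ZEB2 and SNAIL2 were 0.67 and 0.64 for Id2, 0.60 and 0.65 for Id4, and -0.68 and -0.85 for Id3. Over all 7 dimer partners compared, the median was -0.57 with ZEB1, against 0.07 for all genes. None passed 2-fold there in its brightest probe set. Id2 came nearest, at -0.99. Another Id2 probe set, above the floor on all 6 arrays, did pass 2-fold, with 1020 in BRAF-on and 458 with ZEB1. A dimmer Id2 probe set read 92.7 in BRAF-on and 61, under the floor, with ZEB1.

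Corepressors that carry out repression by SNAIL and ZEB factors were mostly within 2-fold. None of 14 was 2-fold apart with BRAF activation, ZEB2, SNAIL2 or TWIST1, where 1.42%, 2.34%, 12% and 4.05% of all genes were. With ZEB1 the Polycomb subunit genes Ezh2 (2.03-fold) and Suz12 (2.14-fold) were lower, as were 3.93% of all genes. Of 14 genes that govern turnover of these proteins 1 was apart in any comparison. It was Gsk3b, the kinase that marks SNAI1 for destruction, 2.06-fold higher with SNAIL2, where 5.61% of all genes were higher. Among 14 upstream signals Tgfb3, a TGF-beta ligand gene, was 2.85-fold higher with TWIST1 and 2.11-fold higher with ZEB1. The receptor gene Notch1 was 2.13-fold lower with SNAIL2. Each was the only 1 of the 14 apart there. Over all genes 2.03% were higher with TWIST1, 4.49% were higher with ZEB1 and 6.42% were lower with SNAIL2.

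Other EMT transcription factors were mostly under the floor or within 2-fold. The third SNAIL gene, Snai3, was at 74.0 in BRAF-off, 67.5 with ZEB2 and under the floor elsewhere. Tbx2 was 2.24-fold higher with SNAIL2 than in BRAF-on. Tbx3 was 2.08-fold lower with ZEB2 and 2.15-fold lower with SNAIL2. Its signal was 86.2 in BRAF-off, 182 in BRAF-on, 87.6 with ZEB2, 84.4 with SNAIL2, 114 with TWIST1 and 208 with ZEB1.

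Epithelial genes, the textbook targets of repression, gave little to read. Of 29 with a probe set 14 were under the floor on all 6 arrays and 3 above it on all 6. Cdh1, the E-cadherin gene, had a probe set with signals of 11.6 to 59.5, under the floor throughout. Krt18, a simple epithelial keratin gene, was 2.26-fold higher with TWIST1, the only member apart in any comparison. Mesenchymal genes with TWIST1 had 5 of 17 higher and 1 lower, with a median of 0.60 against 0.00 for all genes, of which 2.03% were higher and 2.02% lower. The smooth muscle genes Tagln (2.04) and Acta2 (1.80) and the collagen cross-linking gene Lox (1.58) were higher, and the gelatinase gene Mmp2 (-1.66) lower. Mmp2 was 2.4-fold higher with ZEB2 and 3.13-fold higher with SNAIL2. With ZEB1 Tagln was 5.74-fold and Acta2 2.6-fold lower, Pdgfrb was 2.05-fold higher and Pdgfra at least 2.14-fold higher.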

How the data were processed

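RNA from 6 melan-a cultures was copied by in vitro transcription from its 3' end, labelled with biotin and read on Affymetrix mouse arrays, per the labels' protocols. Linear MAS5 signal intensity was deposited by the authors for each probe set. The submitters' processing notes name Affymetrix Expression Console 1.1 for this step; the mean of each array without its top and bottom 2% was 500. Detection calls were not used here. Gene names came from the platform annotation, brought up to date by Entrez number: 34945 probe sets had 1 symbol, 932 several and 9160 none, beside 64 controls. Symbols of 34741 were found in RefSeq (GRCm38.p6).

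Log2 of the signal was used without further normalization. Values under the floor were raised to it, a probe set was compared where at least 1 of 2 arrays reached the floor, and 2-fold or more was counted as apart. For lists each gene was read from its brightest probe set by mean log2. Genes named are all members and the 3 nearest genes per qualifying member. List members at least 2-fold apart were also named, up to 4 per list and comparison, by size. Outside this rule, Tcf3, Id3 and Id4 were named beside the other dimer partners. Tcf12, Id2 with ZEB1, Snai3, Cdh1 and 3 melanocyte markers were named after their values were seen. Members and lists were chosen with earlier results of these data known. The counting was tested on simulated data. Changes were planted there in bright probe sets only, so that test says nothing about calls on dim ones. The marker lists given nowhere else were keratinocyte (1 to 2 of 6 at the floor, summed signal 309 to 543), macrophage (3 of 6, 591 to 1167) and endothelial (0 to 2 of 4, 83.4 to 305). Of the alternatives, 8 were planned and 1 reference array was added after seeing the data. Protein sequences were not used here. Python 3.11.15, numpy 2.4.6, pandas 2.3.3 and matplotlib 3.10.9 were used.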

Additional observations from a re-analysis of the deposited data

Results flagged for a closer look

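Control probe sets, which no comparison above uses, carried a signal that differed on the array labelled SNAIL2. All 24 probe sets of the poly-A control transcripts were brighter there than in BRAF-on, with a median of 2.55-fold. The same array holds the 4 member probe sets that were 2-fold lower than in BRAF-on, and the part of the controls in that result was not tested.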

How the results depend on the processing

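Quantile normalization, centring on the median and leaving out probe sets named x_at or s_at kept the count of member probe sets apart in all 5 comparisons, and no member value 2-fold apart changed its sign under any alternative. With SNAIL2 the 4 apart became 3 with the floor at the 60th percentile, 1 at the 75th, 2 with the floor as a pseudocount and 0 at 3-fold. With TWIST1 the 1 apart became 0 under those last 3 settings and 3 without a floor. Without a floor 6 were apart with SNAIL2 (5 lower, 1 higher), 1 with BRAF activation, 2 with ZEB2 and 3 with ZEB1; values measured on both arrays do not change there, so each added value has an array under the floor. Against BRAF-off, a reference added after seeing the data, 1 was apart with ZEB2 and 1 with ZEB1. Of the 14 probe sets above the floor everywhere, 10 to 14 kept their highest and lowest array. Genes of the 7 lists apart with BRAF activation numbered 1 with quantile normalization, either higher floor or the pseudocount, 17 without a floor and 0 at 3-fold. With ZEB2 they numbered 14 without a floor, 1 with the pseudocount and 0 at 3-fold. Without a floor they numbered 20 with SNAIL2, 23 with TWIST1 and 23 with ZEB1, and at 3-fold 1, 3 and 1. Higher floors test fewer probe sets and 3-fold asks more of each; for the rest the cause was not tested. No paired analysis was possible because each group has 1 array. Dim signals limit Snai1, Zeb1 and most epithelial genes.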

Other observations

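Probe sets of a single gene also parted with SNAIL2 for Tcf12, which encodes an E-protein partner of TWIST factors. Its probe set 1439209_at had a signal of 15.6 with SNAIL2, under the floor, and of 368 to 570 on the other 5 arrays. Its brightest probe set, 1427670_a_at, had a signal of 8434 with SNAIL2 and 7026 in BRAF-on. Tcf12 was named here after its values were seen. Over all genes with 2 probe sets above the floor on all 6 arrays, 5.31% had log2 ratios at least 1 apart with SNAIL2, against 0.759% with BRAF activation, 1.12% with ZEB2, 1.84% with TWIST1 and 2.06% with ZEB1. Each share is of 2768 genes. Tcf12, which has more probe sets, is not among them, and 1439209_at could not have entered, being under the floor with SNAIL2. Among the 419 genes with 4 such probe sets 18.6% had log2 ratios at least 1 apart with SNAIL2.

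Braf, the gene whose activated form was introduced, had 9 probe sets. The signal of the brightest, 1435434_at, was 687 in BRAF-on, 758 in BRAF-off, 715 with SNAIL2, 949 with TWIST1 and 437 with ZEB1. The others did not move together. In BRAF-off and BRAF-on 1425693_at read 206 and 92.2, and 1458641_at read 72.4 and 132. With SNAIL2 1445786_at read 8.91, under the floor, against 88.1 in BRAF-on, and 1456505_at read 267 against 265. These 4 were named after their values were seen.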
